A study of Mus musculus with 9 samples.

Results

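CpG methylation was described at 10 mouse genes of antigen presentation, listed by name with earlier results of these data known. Class I was represented by H2-K1, H2-D1, Nlrc5, Tap1 and Psmb9, and class II by H2-Aa, H2-Ab1, H2-Eb1, Ciita and Cd74. A CpG counted as a member when it lay between 2 kb outside one gene end and 2 kb outside the other and had 1 or more reads in each of the 9 libraries. This rule gave 326 CpGs of the 1096949 with reads in every library, 259 at class I and 67 at class II genes, and they fell in 8 of the 10 genes.

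The libraries came from reduced representation bisulfite sequencing (RRBS), which reads methylation in the CpG-rich part of the genome, of Abl.1 cells. Abl.1 is a clonal, immortalised B cell line with a 129S1/SvImJ x CAST/EiJ F1 background, labelled female, so all groups share 1 clone. Cells in growth medium with 1% DMSO as the control (2 libraries) or with 5-aza-dC were collected on day 2. The 5-aza-dC doses were 0.2 µM (2 libraries), 2 µM (3 libraries) and 10 µM (2 libraries), and the labels name no DMSO for them. Live cells were recovered on a density gradient. The labels number the replicates as library preparations and name no separate cultures, so every SD and p-value here measures the spread between library preparations, which may be technical. 5-aza-dC, or 5-aza-2'-deoxycytidine, is a cytidine analogue that is built into replicating DNA and traps DNA methyltransferases, so that methylation is lost as cells divide.

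MHC class I molecules, whose heavy chains in the mouse include those of H2-K1 and H2-D1, display peptides from inside the cell to CD8 T cells. The peptides are cut by the proteasome, of which Psmb9 is an interferon-inducible subunit, and are pumped into the endoplasmic reticulum by a transporter that contains Tap1. MHC class II molecules of B cells and other antigen-presenting cells display peptides from taken-up protein to CD4 T cells. H2-Aa and H2-Ab1 encode the chains of one class II molecule and H2-Eb1 the beta chain of another, and Cd74 encodes the invariant chain that guides class II molecules to the endosome. Ciita and Nlrc5 are coactivators, of class II and class I genes respectively, that do not bind DNA themselves and are recruited by factors at the promoters, among them the RFX, CREB and NF-Y complexes.

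The start regions of H2-K1 and H2-D1 are shown because they hold the member CpGs nearest to a transcription start, and those of H2-Aa and H2-Eb1 because they hold few or none. Each runs 5′ to 3′ for 300 bases, from 250 bases before to 50 bases after a start listed by RefSeq in build GRCm38.p6, and capitals mark the CpGs with reads in all 9 libraries. H2-K1 lies at chr17:34000298-34000597 on the minus strand (the first of 2 listed starts), H2-D1 at chr17:35262844-35263143 on the plus strand, H2-Aa at chr17:34287774-34288073 on the minus strand and H2-Eb1 at chr17:34305617-34305916 on the plus strand.
H2-K1: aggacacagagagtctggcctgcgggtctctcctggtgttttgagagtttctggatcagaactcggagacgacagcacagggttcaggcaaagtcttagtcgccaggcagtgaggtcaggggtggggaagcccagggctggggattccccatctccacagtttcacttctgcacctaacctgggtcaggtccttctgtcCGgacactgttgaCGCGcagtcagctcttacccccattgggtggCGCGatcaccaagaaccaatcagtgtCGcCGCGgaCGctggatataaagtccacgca
H2-D1: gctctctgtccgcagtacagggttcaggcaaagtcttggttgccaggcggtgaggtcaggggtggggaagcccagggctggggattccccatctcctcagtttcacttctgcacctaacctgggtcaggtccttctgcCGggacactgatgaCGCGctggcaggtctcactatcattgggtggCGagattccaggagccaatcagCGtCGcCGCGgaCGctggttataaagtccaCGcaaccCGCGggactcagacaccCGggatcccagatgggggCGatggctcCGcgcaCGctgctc
H2-Aa: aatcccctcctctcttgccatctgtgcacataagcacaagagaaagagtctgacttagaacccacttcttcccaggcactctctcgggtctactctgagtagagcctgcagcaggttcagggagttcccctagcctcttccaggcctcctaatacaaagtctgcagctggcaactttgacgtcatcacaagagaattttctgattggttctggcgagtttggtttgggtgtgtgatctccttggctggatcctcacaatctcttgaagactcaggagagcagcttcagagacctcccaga
H2-Eb1: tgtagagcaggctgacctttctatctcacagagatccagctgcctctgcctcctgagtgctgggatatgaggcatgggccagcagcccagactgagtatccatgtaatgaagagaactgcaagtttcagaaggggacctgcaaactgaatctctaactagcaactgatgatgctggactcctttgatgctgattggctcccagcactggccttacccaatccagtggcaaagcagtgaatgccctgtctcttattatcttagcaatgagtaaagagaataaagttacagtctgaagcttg

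The 4 class I genes with a start region had more CpGs there than the 2 class II genes. H2-D1 had 19 CpGs in its 300 bases, 16 of them read in every library, and H2-K1 had 14, with 9 read. Tap1 and Psmb9, whose divergent start regions overlap, had 15 and 17, with 0 read in every library. H2-Aa had 3 and H2-Eb1 had 0, against a median of 7 and quartiles of 3 and 20 over all 32817 listed start regions, of which 5.43% had 0. The class I starts thus lay between the median and the upper quartile. Start regions for H2-Ab1, Ciita, Nlrc5 and Cd74 were not used here.

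At the capitals shown, methylation was near 0 in every group. Read counts were summed over these CpGs and all 9 libraries. At H2-K1, 1 of 412 was methylated, or 0.243% (95% exact Clopper-Pearson interval 0.00614 to 1.34%, for counting error only). At H2-D1, 6 of 1422 were, or 0.422% (0.155 to 0.916%). A read over several CpGs counts at each, so the counts are not independent and the intervals may be too narrow. The H2-K1 CpGs were at 0.347% ± 0.491 (SD, n = 2) in DMSO and at 0% in the 7 treated libraries. The H2-D1 CpGs were at 0.136% ± 0.192 (SD, n = 2) in DMSO, 0.608% ± 0.859 (SD, n = 2) with 0.2 µM, 0.208% ± 0.361 (SD, n = 3) with 2 µM and 0.938% ± 0.442 (SD, n = 2) with 10 µM. The 2 sequences were 88.3% identical over 239 aligned bases, so reads of one gene may be placed at the other, and how such reads were counted is not given in the sources used here.

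Letters of 2 motifs were searched on both strands of the start regions. CCAAT, the core of the box bound by NF-Y, occurred 2 times in H2-K1, H2-D1 and H2-Eb1 and once in H2-Aa, Tap1 and Psmb9, and 37.4% of all regions held it. TGACG, a CREB half-site, occurred once in H2-K1, H2-D1, Tap1 and Psmb9, 2 times in H2-Aa and 0 times in H2-Eb1, and 20.8% of all regions held it. The 2 TGACG matches in H2-Aa overlap each other on opposite strands, and no other matches within a region overlap. Since the regions of Tap1 and Psmb9 overlap, their CCAAT is the same site, and so is their TGACG. These matches describe letters only.

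Each gene was divided into end windows, from 2 kb outside to 1 kb inside each gene end, and a body window between them. The level of a library in a window was the unweighted mean methylation of its CpGs, in percent, and a change is a difference of group means in percentage points. Reads of a window or group of CpGs are read counts summed over its CpGs, so a read over several CpGs counts at each. Levels differed more between the genes of a class than the class means show. Of the class I ends, those of H2-K1, H2-D1 and Nlrc5 and the shared 5' CpGs of Tap1 and Psmb9 were nearly unmethylated, while 4 CpGs at the 3' end of Psmb9 were at 100% in DMSO, 10 in the 3' end of Tap1 at 29.0% and 6 upstream of Tap1 at 25%. All 4 class means were lowest with 0.2 µM. No test was made of these class means, in which a CpG shared by 2 genes counts once, as an end CpG where it is in an end window of either gene. Over the 227 end CpGs of class I, DMSO gave 4.51% and 5.05%, and 0.2 µM gave 2.42% and 3.11%. The group means were 4.78% ± 0.384 (SD, n = 2) in DMSO, 2.76% ± 0.493 (SD, n = 2) with 0.2 µM, 3.88% ± 0.988 (SD, n = 3) with 2 µM and 4.31% ± 0.952 (SD, n = 2) with 10 µM. Both 0.2 µM libraries were below both DMSO libraries. The 2 µM libraries, at 4.89%, 3.83% and 2.92%, and the 10 µM libraries, at 3.64% and 4.99%, overlapped DMSO.

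Class I bodies held 32 CpGs, 19 of them at Nlrc5. Their level was 71.8% and 73.4% in DMSO, 19.3% and 21.8% with 0.2 µM, 40.9%, 40.4% and 41.9% with 2 µM, and 57.1% and 56.2% with 10 µM. No 2 groups overlapped, and the order rose from 0.2 µM through 2 µM and 10 µM to DMSO. The 19 CpGs of Nlrc5 averaged 86.1% in DMSO and 22.7% with 0.2 µM, and the other 13 averaged 52.8% and 17.4%. In DMSO these 13 ran from 11.6% at H2-D1 and 13.4% at H2-K1 to 100% at Tap1 and Psmb9. Psmb9 gave only 2 of them, with 3 to 14 reads a library, since its other 6 body CpGs count as ends of Tap1. Its full body window of 8 CpGs was at 43.75% in DMSO. Over the 32 CpGs, the mean with 10 µM differed from DMSO by -16.0 points and that with 0.2 µM by -52.0 points. Over the 6 CpGs with 5 or more reads in every library, the differences were 4.96 and -20.8 points. The medians over all 10557 gene bodies tested were 74.1% in DMSO, 23.5% with 0.2 µM, 41.5% with 2 µM and 57.2% with 10 µM.

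Class II ends held 12 CpGs, 9 at the right end of Ciita, inside the gene Dexi, and 3 at the left end of H2-Ab1. Their joint level was 65.8% and 74.2% in DMSO, 18.4% and 10.6% with 0.2 µM, 39.5%, 30.3% and 47.0% with 2 µM, and 67.9% and 65.8% with 10 µM. The 10 µM libraries overlapped the DMSO range, and the 0.2 µM and 2 µM libraries overlapped no other group. The 3 CpGs of H2-Ab1 were far lower than those of Ciita, at 8.33% ± 11.8 (SD, n = 2) in DMSO, 0% in both 0.2 µM libraries, 3.70% ± 6.42 (SD, n = 3) with 2 µM and 13.9% ± 3.93 (SD, n = 2) with 10 µM, from 5 to 18 reads a library. With 10 µM the change of the joint level ran from -7.30 to 1.03 points when 1 library was left out, the highest without DMSO replicate 2. The 55 class II body CpGs, 30 of them at H2-Ab1, were at 40.9% and 38.4% in DMSO, 18.4% and 14.9% with 0.2 µM, 30.8%, 24.2% and 34.1% with 2 µM, and 38.3% and 38.5% with 10 µM. Here the 10 µM libraries lay at the lower edge of DMSO. Over all 16074 end windows tested, the median was 3.79% in DMSO, 1.40% with 0.2 µM, 2.84% with 2 µM and 3.59% with 10 µM.

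**Figure D1:**
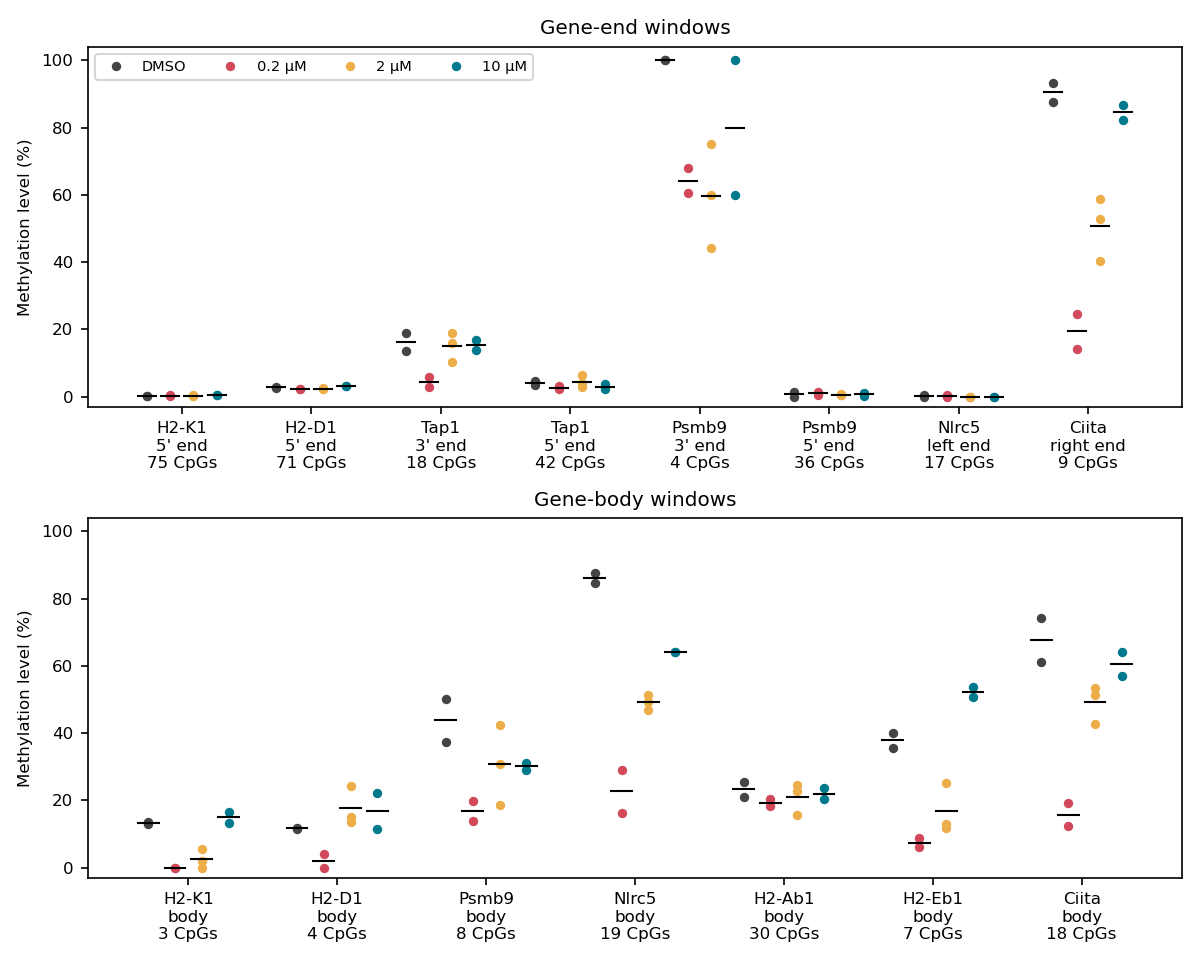
Methylation level in percent (y axis) of each library (points) and mean of each group (bars) in the tested end windows (top) and body windows (bottom) of the antigen presentation genes (x axis), with colours for DMSO, 0.2, 2 and 10 µM. The 5' ends of H2-K1, H2-D1, Tap1 and Psmb9 and the left end of Nlrc5 stayed under 7% in every library, while Ciita and the body of Nlrc5 were above 60% in DMSO and under 30% with 0.2 µM.

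Tests were run on every window of this kind in all protein-coding genes, with a logistic model whose dispersion was moderated by limma, and p-values were adjusted by the Benjamini-Hochberg method over all windows of a kind. A window needed 3 CpGs and 10 reads in every library. Of the member genes, 8 end windows and 7 body windows passed, with Tap1 and Psmb9 sharing 36 CpGs in their 5' ends. The 3 CpGs in the left end of H2-Ab1 (5 to 18 reads a library) and the 4 in the body of Tap1 (4 to 47 reads) did not. H2-Aa had 0 CpGs read in 8 of the libraries and 3 in the other, and Cd74 had 4 to 20 in a library but 0 in common, so these genes have no level here.

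With 0.2 µM, 2 of the 8 member end windows were lower than in DMSO at an adjusted p under 0.05, against 43.2% of all end windows. With 2 µM, 2 of 8 were lower, against 28.6% of all (10.1% without DMSO replicate 1 and 16.3% without DMSO replicate 2). With 10 µM, 0 of 8 were lower, against 3.8% of all (0% without DMSO replicate 1 or 2), with 0 of 8 at an unadjusted p under 0.05 and 0 of 8 with limma on the levels. No member end window was called higher in any dose, against 0.386%, 0.292% and 0.0622% of all with 0.2, 2 and 10 µM. The median change of the member windows was -1.02 points with 0.2 µM, -0.34 points with 2 µM and -0.54 points with 10 µM, beside -1.93, -0.84 and -0.37 points over all end windows. Of the 8 windows, 5 began under 5% in DMSO.

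In bodies, 6 of the 7 member windows were lower with 0.2 µM than in DMSO, against 92.1% of all body windows. With 2 µM, 4 of 7 were lower, against 82.4%, and with 10 µM 1 of 7, against 31.5%. That last share rests on single libraries, with 0.104% of all bodies lower without DMSO replicate 1, 7.26% without DMSO replicate 2 and 13.3% without 10 µM replicate 1. None was called higher, against 0.0379%, 0.0947% and 0.0853% of all. The median change of the 7 windows was -27.0 points with 0.2 µM, -13.1 points with 2 µM and -1.34 points with 10 µM, beside -43.9, -29.0 and -12.1 points over all bodies. Taking each gene whole, 5 of 8 members were lower with 0.2 µM, against 81.7% of all genes, 4 of 8 with 2 µM, against 68.9%, and 0 of 8 with 10 µM, against 17.6% (0.525% without DMSO replicate 1). No whole gene was called higher, against 0.136%, 0.222% and 0.148% of all. With 10 µM, 1 of these 8 had an unadjusted p under 0.05, and limma on the levels called 1, against 3546 of 16187 of all.

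**Figure D2:**
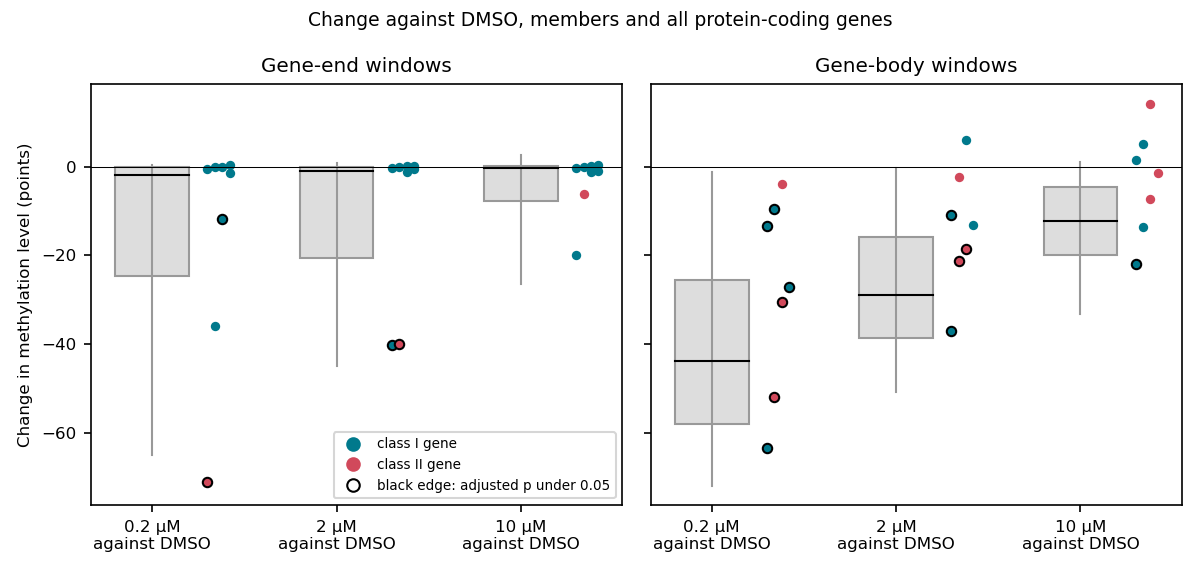
Change in methylation level against DMSO in percentage points (y axis) for end windows (left) and body windows (right) at each dose (x axis); boxes show the median and quartiles over all protein-coding genes, whiskers the 5th to 95th percentile, and points single member windows, with a black edge at an adjusted p under 0.05. Member end points lie near 0 except at Ciita, Psmb9 3' and Tap1 3', and member body points with 10 µM lie on both sides of 0.

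The class I heavy chain genes were nearly unmethylated at their 5' ends in all groups. H2-K1 (chr17:33996012-34000619, minus strand) had 75 of its 78 CpGs in the 5' window, within 1 stretch from -52 to 987 bp, counted into the gene from its 5' end. Libraries ranged from 0.058 to 0.529% there, with 629 to 1423 reads each, and the change was -0.00901 points with 0.2 µM (adjusted p = 0.992), 0.0752 points with 2 µM (adjusted p = 0.852) and 0.206 points with 10 µM (adjusted p = 0.631). The 10 µM libraries were above both DMSO libraries by fractions of a point, and the other groups overlapped DMSO.

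Of the 3 body CpGs of H2-K1, the one at chr17:33998968 (mm10) held nearly all of the methylation. It had 9 of 30 reads methylated in DMSO, 0 of 24 with 0.2 µM, 2 of 28 with 2 µM and 8 of 18 with 10 µM, while the CpG at chr17:33998904 had 2 of 18 in DMSO and 0 in the other groups and that at chr17:33998983 had 0 in every group. Together they were at 13.6% and 13.1% in DMSO, 0% and 0% with 0.2 µM, 0%, 5.56% and 1.96% with 2 µM, and 13.3% and 16.7% with 10 µM. DMSO and 10 µM overlapped at the high side, and the 0.2 µM and 2 µM libraries were all lower. The zeros rest on read counts of 16 and 32 with 0.2 µM and 11 with 2 µM, summed over the 3 CpGs. Taken as independent, these allow levels of up to 18.8%, 9.38% and 27.3%. For the CpG at chr17:33998968 alone, with fewer counts, the limits would be higher. The level fell by 13.4 points with 0.2 µM (adjusted p = 0.00503) and by 10.9 points with 2 µM (adjusted p = 0.0203). Without 0.2 µM replicate 2 the first call was lost (adjusted p = 0.114), and without DMSO replicate 1 or 2 µM replicate 3 the second (adjusted p = 0.124 and 0.0872).

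H2-D1 (chr17:35263094-35267497, plus strand) had 71 of its 75 CpGs in the 5' window. That window was at 2.95% and 2.65% in DMSO, 2.27% and 2.26% with 0.2 µM, 2.61%, 2.17% and 2.20% with 2 µM, and 3.12% and 3.24% with 10 µM. The 0.2 µM and 2 µM libraries were all below the DMSO libraries and the 10 µM libraries all above, by fractions of a point, and no change was called. The change was -0.54 points with 0.2 µM (adjusted p = 0.337), -0.47 points with 2 µM (adjusted p = 0.403) and 0.37 points with 10 µM (adjusted p = 0.788).

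In DMSO, almost all of this methylation sat in 10 neighbouring CpGs at chr17:35263363-35263417 (mm10), 269 to 323 bp inside the gene. The run was picked out by the DMSO level of its CpGs, after the values were seen. That choice alone can raise DMSO against the treated groups in the run and lower it in the neighbours. The run was at 20.7% and 18.4% in DMSO, 12.5% and 11.5% with 0.2 µM, 18.6%, 14.7% and 14.6% with 2 µM, and 19.1% and 17.1% with 10 µM, with 116 to 265 reads a library. The 0.2 µM libraries were the lowest, and the other groups overlapped. The other 61 CpGs of the window were at 0.0613% ± 0.0142 (SD, n = 2) in DMSO and at most 0.965% in any library. On both sides the neighbours were unmethylated in DMSO, with 0.089% over the 42 CpGs before the run and 0% over the 19 after it. No test was made of the run, and whether reads of other class I genes contribute to it was not tested.

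The 4 body CpGs of H2-D1, 1308 to 1387 bp inside, were at 11.7% and 11.6% in DMSO and 4.05% and 0% with 0.2 µM, where 0 of 85 reads allows up to 3.53%. They were at 15.1%, 24.3% and 13.5% with 2 µM and 22.2% and 11.5% with 10 µM. Only 0.2 µM was below DMSO in every library, and 2 µM was above DMSO in every library. The level fell by 9.61 points with 0.2 µM (adjusted p = 0.0181), a call lost without DMSO replicate 1 (adjusted p = 0.0815), without 0.2 µM replicate 2 (adjusted p = 0.190) and with limma on the levels (adjusted p = 0.0598). The changes with 2 µM, 6.0 points, and with 10 µM, 5.21 points, were not called (adjusted p = 0.271 and 0.512).

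**Figure D3:**
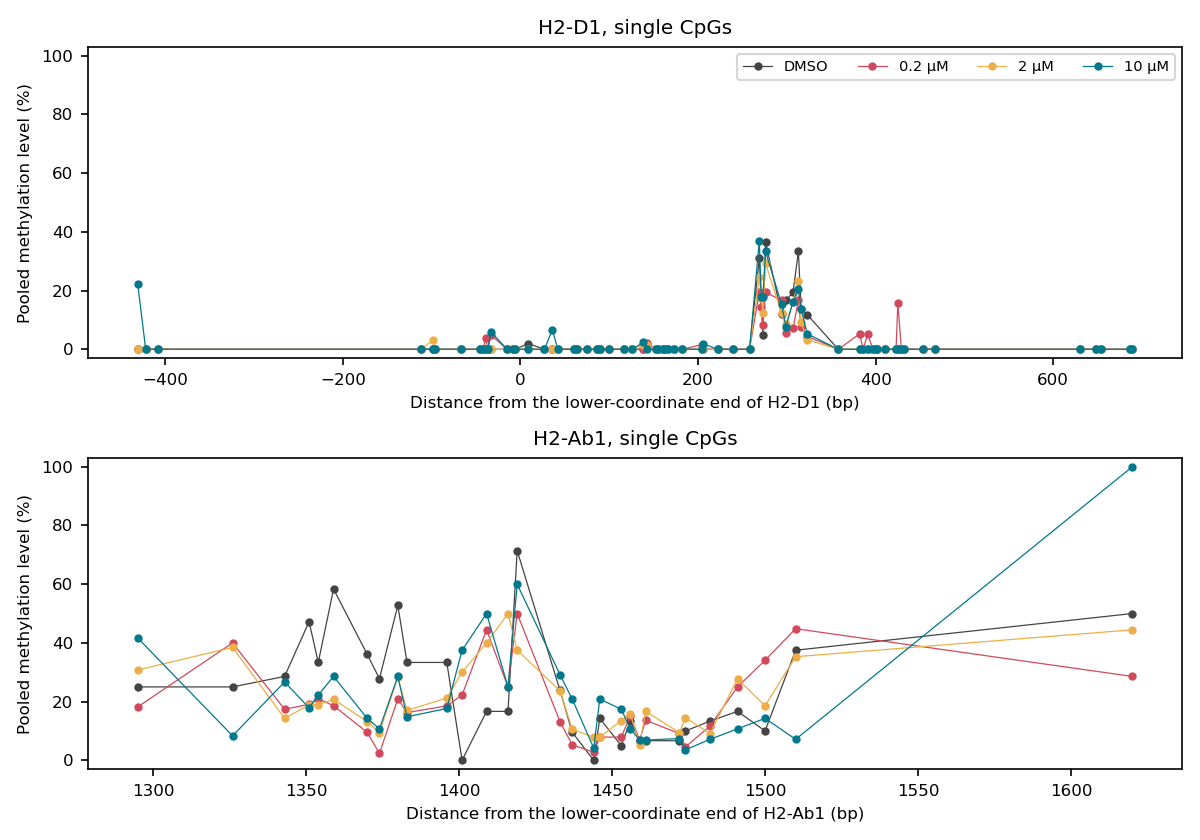
Methylation of single CpGs in percent, with reads pooled over the libraries of a group (y axis), by distance from the lower-coordinate end of H2-D1 (top) and H2-Ab1 (bottom) in bp (x axis), with colours for the 4 groups. In H2-D1 the level leaves 0 mainly in 1 run of 10 CpGs at 269 to 323 bp, and in H2-Ab1 the DMSO line lies above the treated lines between 1351 and 1383 bp and crosses them elsewhere.

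The peptide supply genes Tap1 (chr17:34187556-34197225, plus strand) and Psmb9 (chr17:34182030-34187330, minus strand) lie head to head. The 36 CpGs they share at their 5' ends, 217 to 704 bp inside Tap1, had 142 to 645 reads a library and stayed between 0 and 1.39%, where the library at 0, with 263 reads, allows up to 1.14%. Their mean was 0.666% ± 0.942 (SD, n = 2) in DMSO and 0.995% ± 0.556 (SD, n = 2) with 0.2 µM. The changes were 0.329, -0.106 and 0.0283 points with 0.2, 2 and 10 µM (adjusted p = 0.776, 0.569 and 0.803). The wider 5' window of Tap1 also holds 6 CpGs of the Psmb9 body, and with these it was at 4.14% ± 0.876 (SD, n = 2) in DMSO and 2.64% ± 0.702 (SD, n = 2) with 0.2 µM (adjusted p = 0.526).

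The 3' end of Tap1 was at 13.6% and 18.8% in DMSO, 2.83% and 5.95% with 0.2 µM, 18.9%, 15.9% and 10.2% with 2 µM, and 13.8% and 16.9% with 10 µM. Only the 0.2 µM libraries stood apart from the rest. Methylation fell by 11.8 points with 0.2 µM (adjusted p = 0.00605) and was not called with 2 µM (-1.21 points, adjusted p = 0.970) or 10 µM (-0.86 points, adjusted p = 0.945). The fall kept an adjusted p under 0.05 without any 1 library, but was lost with 5 or more reads per CpG (-4.38 points, adjusted p = 0.0869) and with reads summed (-6.26 points, adjusted p = 0.0508). Its 18 CpGs form 2 groups, 10 inside the gene at 29.0% ± 6.95 in DMSO and 7.52% ± 4.51 with 0.2 µM (SD, n = 2 each), and 8 beyond it, near the start of Psmb8, at 0.284% and 0.481%.

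Psmb9 was methylated at its 3' end. The 4 CpGs there were at 100% and 100% in DMSO, 60.4% and 67.9% with 0.2 µM, 75%, 60% and 44.0% with 2 µM, and 60% and 100% with 10 µM. Every 0.2 µM and 2 µM library was below DMSO, and one 10 µM library was not. With 16 to 34 reads a library, the 40.3-point fall with 2 µM was called (adjusted p = 0.0432) and the change of -35.9 points with 0.2 µM was not (adjusted p = 0.0588). The call with 2 µM was lost without DMSO replicate 1 or 2 (adjusted p = 0.287 and 0.159), without 0.2 µM replicate 1 or 2 (adjusted p = 0.0716 and 0.0717), without 2 µM replicate 2 or 3 (adjusted p = 0.0707 and 0.0978), with limma on the levels (adjusted p = 0.0511), with all windows kept (adjusted p = 0.0584) and with ends within 1 kb of the gene end (adjusted p = 0.0507). The change with 0.2 µM passed the threshold without 10 µM replicate 1 or 2 (adjusted p = 0.0132 each) and with reads summed (adjusted p = 0.045).

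The 8 body CpGs of Psmb9 were at 37.5% and 50% in DMSO, 19.7% and 13.8% with 0.2 µM, 42.5%, 30.8% and 18.8% with 2 µM, and 31.2% and 29.2% with 10 µM. DMSO and 2 µM overlapped, and the 0.2 µM and 10 µM libraries were all below DMSO. The level fell by 27.0 points with 0.2 µM (adjusted p = 0.0295), a call lost without DMSO replicate 1 (adjusted p = 0.068), DMSO replicate 2 (adjusted p = 0.121) or 0.2 µM replicate 2 (adjusted p = 0.0774), or with reads summed (adjusted p = 0.103). At 2 and 10 µM the changes were -13.1 and -13.5 points (adjusted p = 0.269 and 0.415). The 4 untested body CpGs of Tap1 were at 100% in both DMSO libraries, 43.8% and 36.1% with 0.2 µM, 66.7%, 34.4% and 64% with 2 µM, and 70% and 100% with 10 µM.

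Nlrc5 (chr8:94434335-94527272, strand not given in the tables used) was unmethylated at one end and methylated across its body. Its left end, where 17 CpGs span -50 to 185 bp counted into the gene, was at 0% in 7 of 9 libraries and at 0.42% and 0.49% in the others. With 92 to 257 reads, a library at 0 allows levels of up to 1.17 to 3.26%. The changes were 0.035 points with 0.2 µM (adjusted p = 0.814) and -0.21 points with both 2 µM and 10 µM (adjusted p = 0.398 and 0.481).

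The body of Nlrc5 was at 84.7% and 87.5% in DMSO, 16.3% and 29.1% with 0.2 µM, 46.9%, 49.3% and 51.3% with 2 µM, and 64.1% and 64.1% with 10 µM. No groups overlapped. It fell by 63.4 points with 0.2 µM (adjusted p = 9.41e-06), by 37.0 points with 2 µM (adjusted p = 0.000412) and by 22.0 points with 10 µM (adjusted p = 0.0359). No other member window was called at all 3 doses. The first 2 calls held without any 1 library. The call with 10 µM was lost without DMSO replicate 1 or 2 (adjusted p = 0.150 and 0.169) and without 10 µM replicate 1 or 2 (adjusted p = 0.114 and 0.096). The body level with 2 µM was 26.4 points above that with 0.2 µM (adjusted p = 0.00146).

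Along Nlrc5, 7 CpGs 85833 to 86050 bp into the gene were at 100% ± 0 in DMSO, 30.7% ± 18.4 with 0.2 µM and 91.8% ± 1.55 with 10 µM (SD, n = 2 each), with 56.6% ± 12.1 with 2 µM (SD, n = 3). Smaller groups of 1 to 3 CpGs filled the rest of the body, with 2 to 40 reads a library. Of the 7 body groups, the mean with 0.2 µM was below that in DMSO in 7. The group nearest the unmethylated end, 1094 to 1159 bp inside, had the lowest mean in DMSO, 39.6% ± 32.4 (SD, n = 2), from 3 to 14 reads a library.

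Ciita (chr16:10480014-10531064, strand not given in the tables used) was lower with 0.2 µM and 2 µM both in its body and at its right end. The 9 CpGs of the right end window were at 87.8% and 93.3% in DMSO, 24.6% and 14.2% with 0.2 µM, 52.7%, 40.4% and 58.9% with 2 µM, and 86.8% and 82.2% with 10 µM. The 0.2 µM libraries were lowest and the 2 µM libraries between them and the rest, and both 10 µM libraries lay just below DMSO. Methylation fell by 71.2 points with 0.2 µM (adjusted p = 0.000606) and by 39.9 points with 2 µM (adjusted p = 0.0128), and was not called with 10 µM (-6.04 points, adjusted p = 0.716). The call with 0.2 µM held without any 1 library, and that with 2 µM was lost without DMSO replicate 1 or 2 (adjusted p = 0.0774 and 0.116). Of the 9 CpGs, 7 lie beyond the gene end, at chr16:10532503-10532739 (mm10), and all 9 lie within the neighbouring gene Dexi.

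The 18 body CpGs of Ciita were at 74.4% and 61.0% in DMSO, 19.1% and 12.4% with 0.2 µM, 51.3%, 42.7% and 53.5% with 2 µM, and 57.0% and 64% with 10 µM. DMSO and 10 µM overlapped, and the 2 other groups overlapped none. The level fell by 51.9 points with 0.2 µM (adjusted p = 3.06e-05), which held without any 1 library, and by 18.5 points with 2 µM (adjusted p = 0.0177). The second call was lost without DMSO replicate 1 (adjusted p = 0.271) and without 2 µM replicate 2 (adjusted p = 0.0579). With 10 µM the change was -7.17 points (adjusted p = 0.375). With 2 µM the level was 33.4 points above that with 0.2 µM (adjusted p = 0.000768).

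One group of Ciita CpGs had a lower mean level in DMSO than the other body groups, with no test made. The 5 CpGs 8298 to 8399 bp from the lower-coordinate end were at 18.5% ± 2.12 in DMSO (SD, n = 2), 9.52% ± 13.5 with 0.2 µM (SD, n = 2), 16.6% ± 20.1 with 2 µM (SD, n = 3) and 16.1% ± 22.7 with 10 µM (SD, n = 2). The other body groups, of 2 to 4 CpGs each, had DMSO means of 50.0 to 100%. At the 4 CpGs 31645 to 31718 bp from that end, the best covered group of the body, with 21 to 88 reads, the level was 94.4% ± 3.93 in DMSO (SD, n = 2), 24.0% ± 5.64 with 0.2 µM (SD, n = 2), 55.2% ± 4.42 with 2 µM (SD, n = 3) and 82.5% ± 10.9 with 10 µM (SD, n = 2).

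**Figure D4:**
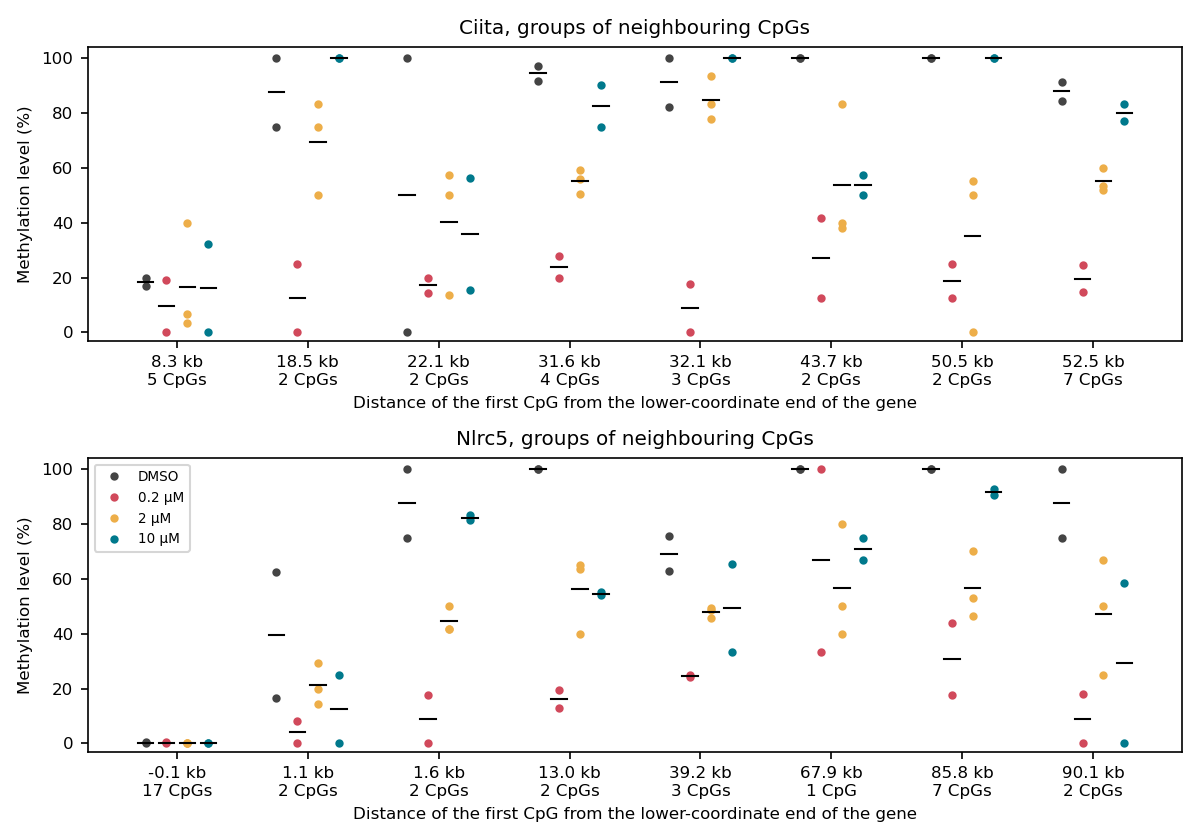
Methylation level in percent (y axis) of each library (points) and group mean (bars) for groups of neighbouring CpGs less than 300 bp apart along Ciita (top) and Nlrc5 (bottom), ordered by the distance of the first CpG from the lower-coordinate gene end in kb (x axis). The 17 CpGs at the left end of Nlrc5 lie at or near 0 in all groups, and most other groups are highest in DMSO and lowest with 0.2 µM, with few reads in groups of 1 to 3 CpGs.

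H2-Eb1 (chr17:34305867-34316674, plus strand) had 7 CpGs, all in its body. They were at 40% and 35.7% in DMSO, 8.72% and 6.15% with 0.2 µM, 11.9%, 13.1% and 25.1% with 2 µM, and 53.6% and 50.7% with 10 µM, with 15 to 49 reads a library. The 0.2 µM and 2 µM libraries were all below DMSO, and the 10 µM libraries were both above it. The level fell by 30.4 points with 0.2 µM (adjusted p = 0.00192), which held without any 1 library, and by 21.2 points with 2 µM (adjusted p = 0.044). The call with 2 µM was lost without any 1 of 8 libraries (adjusted p from 0.0501 to 0.198) and kept only without 2 µM replicate 3. With 10 µM the change of 14.3 points was not called (adjusted p = 0.338), although limma on the levels called it (adjusted p = 0.0463). It was uneven along the gene. The 2 CpGs 6304 to 6404 bp inside were at 82.5% ± 10.6 in DMSO and 82.4% ± 7.16 with 10 µM (SD, n = 2 each). The 5 CpGs 8453 to 8617 bp inside were at 20% in both DMSO libraries and 40% in both 10 µM libraries, from 5 to 34 reads a library.

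H2-Ab1 (chr17:34263227-34269418, strand not given in the tables used) had 30 CpGs in its body, 1295 to 1620 bp from the lower-coordinate end, and was the member body without a call. The libraries were at 21.1% and 25.4% in DMSO, 20.3% and 18.3% with 0.2 µM, 22.8%, 15.8% and 24.5% with 2 µM, and 23.5% and 20.3% with 10 µM. The 0.2 µM libraries were below both DMSO libraries, and the other groups overlapped DMSO. The changes were -3.95, -2.20 and -1.34 points with 0.2, 2 and 10 µM (adjusted p = 0.298, 0.593 and 0.870). Its read counts, summed over the 30 CpGs, were 223 to 507 a library.

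Within these 30 CpGs the levels and changes were unequal. The 7 CpGs with 10 or more reads in every library lie side by side within 33 bp, and they were at 39.6% and 45.7% in DMSO, 23.3% and 7.82% with 0.2 µM, 24.6%, 10.7% and 20% with 2 µM, and 25.7% and 13.3% with 10 µM. All 7 treated libraries were below both DMSO libraries. With the requirement of 10 reads per CpG, the body of H2-Ab1 was called lower with 0.2 µM (-27.1 points, adjusted p = 0.0249) and with 2 µM (-24.2 points, adjusted p = 0.0418). The other 23 CpGs were at 17.3% ± 2.68 in DMSO (SD, n = 2), 20.4% ± 1.57 with 0.2 µM (SD, n = 2), 21.8% ± 4.33 with 2 µM (SD, n = 3) and 22.6% ± 0.325 with 10 µM (SD, n = 2), with no test. With reads summed, so that well-covered CpGs weigh more, the level with 0.2 µM fell by 8.68 points (adjusted p = 0.0473).

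The doses were then compared with each other. From 0.2 µM to 2 µM, 2 of 8 member end windows were higher, against 11.7% of all, and 3 of 7 bodies, against 56.8% of all. The ends were the right end of Ciita, 31.3 points higher (adjusted p = 0.0142), and the 3' end of Tap1, 10.6 points higher (adjusted p = 0.0256). The Ciita call was lost without 0.2 µM replicate 2 (adjusted p = 0.0978) and with limma on the levels (adjusted p = 0.0587), and the Tap1 call without 0.2 µM replicate 1 or 2 (adjusted p = 0.112 and 0.0701) or 2 µM replicate 1 or 2 (adjusted p = 0.0637 and 0.0759). With 5 or more reads per CpG the Tap1 difference was 3.51 points (adjusted p = 0.231), and it was also lost with reads summed (adjusted p = 0.0631) and with limma on the levels (adjusted p = 0.129). The bodies were those of Nlrc5 and Ciita, given above, and H2-D1, 15.6 points higher (adjusted p = 0.00683, and 0.0967 without 0.2 µM replicate 2). Without 2 µM replicate 3 the body of Psmb9 was also called, 19.9 points higher (adjusted p = 0.0443), and without 2 µM replicate 1 that of H2-Eb1, 11.6 points higher (adjusted p = 0.0416). Leaving out 1 library gave 2 to 4 higher bodies. Whole genes gave 3 of 8, against 46.7% of all, which were Nlrc5, Tap1 and Ciita.

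From 2 µM to 10 µM, 0 of 8 member end windows were higher, against 5.06% of all, with 1 of 8 at an unadjusted p under 0.05. Limma on the levels called 1, the right end of Ciita, 33.9 points higher (adjusted p = 0.0462, against 0.0631 in the logistic model). Of the bodies, 2 of 7 were higher, against 44% of all. H2-Eb1 was 35.4 points higher (adjusted p = 0.0148, and 0.133 without 10 µM replicate 1) and H2-K1 12.5 points higher (adjusted p = 0.0443). The H2-K1 call was lost without any 1 of 8 libraries (adjusted p from 0.0523 to 0.155) and kept only without 2 µM replicate 2. The body of Nlrc5, 15.0 points higher, was not called (adjusted p = 0.0865), but passed with limma on the levels (adjusted p = 0.0286), with reads summed (adjusted p = 0.0277) and without 0.2 µM replicate 1 or 2 (adjusted p = 0.0417 and 0.0414). Whole genes gave 2 of 8, against 34.7% of all, H2-Eb1 and Ciita. No member window was called lower in either comparison. Of all windows, 0.989% of ends, 0.9% of bodies and 1.35% of whole genes were lower from 0.2 to 2 µM, and 0.0311%, 0.0284% and 0.124% from 2 to 10 µM.

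Sorted by their DMSO level with reads pooled, 74.2% of the 326 member CpGs were under 20%, 12.9% between 20 and 80%, and 12.9% at 80% or above, beside 53.3%, 17.5% and 29.1% of all CpGs. Class I CpGs were under 20% in 218 of 259 cases and class II CpGs in 24 of 67. The 42 member CpGs at 80% or above averaged 98.1% in DMSO, 28.6% with 0.2 µM, 55.5% with 2 µM and 80.1% with 10 µM, and all CpGs of that class 95.5%, 40.2%, 53.6% and 72.5%. Since the class was chosen on the DMSO level, these falls are a description with no test. Among them, the 19 class II CpGs retained 20.1% of their DMSO level with 0.2 µM and the 23 class I CpGs 36.5%, whereas between 20 and 80% the order was the other way, with 45.1% for 24 class II and 27.8% for 18 class I CpGs. The CpGs under 20% averaged 1.80% in DMSO, 1.94% with 0.2 µM, 2.66% with 2 µM and 3.07% with 10 µM over the members, and 1.66%, 1.46%, 2.30% and 2.76% over all CpGs. At class II genes, the 24 CpGs under 20% were at 5.92%, 10.4%, 13.4% and 15.8%. The CpGs under 20% were chosen for a low DMSO level, some from few reads. Higher levels in the other groups can come from that choice alone, and no test was made.

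Of 16 end windows at 13 other genes of the class I pathway, 13 began under 5% in DMSO. The others were the 5' ends of the class I gene H2-Q7, at 43.9%, of Tapbp, the chaperone tapasin, at 28.0%, and of Psmb8, at 16.2%, named here after their values were seen. Lower ends numbered 4 with 0.2 µM, 2 with 2 µM and 0 with 10 µM, against 43.2%, 28.6% and 3.8% of all ends. One of the 4, the 5' end of the immunoproteasome gene Psmb8, holds the same 18 CpGs as the 3' end of Tap1. Of 5 bodies, 4 were lower with 0.2 µM, 4 with 2 µM and 0 with 10 µM, against 92.1%, 82.4% and 31.5% of all bodies, and the other, Psmb10, an immunoproteasome subunit, was at 1.26% in DMSO. The largest called changes with 0.2 µM were in bodies. They were -64.2 points in Erap1, the aminopeptidase that trims peptides (adjusted p = 0.000636), -45.3 points in Calr, the chaperone calreticulin (adjusted p = 0.000321), and -39.2 points in Pdia3, its partner in class I loading (adjusted p = 0.00338). The median change with 0.2 µM was -0.53 points over the ends and -39.2 points over the bodies.

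Among 10 other class II pathway genes, 5 had a tested end and 4 a tested body. Of 6 end windows, 4 were lower with 0.2 µM, 2 with 2 µM and 1 with 10 µM, against 43.2%, 28.6% and 3.8% of all ends. Of 4 bodies 4, 2 and 0 were lower, against 92.1%, 82.4% and 31.5% of all bodies. The 3' end of H2-DMa, a chain of the class II peptide exchange factor, had 18 CpGs at 97.8% ± 0.436 (SD, n = 2) in DMSO and fell by 66.2 points with 0.2 µM (adjusted p = 0.000114), fell by 26.7 points with 2 µM (adjusted p = 0.000981) and fell by 21.5 points with 10 µM (adjusted p = 0.0182). Its 5' end, with 123 CpGs, was at 0.241% in DMSO and was not called at any dose. The bodies of Lgmn, an endosomal protease, and Marchf1, a ubiquitin ligase that acts on class II molecules, changed by -52.5 and -50.7 points with 0.2 µM (adjusted p = 5.89e-06 and 5.06e-05). Median changes with 0.2 µM were -27.7 points over the ends and -37.1 points over the bodies.

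Of 8 genes for factors that act at MHC promoters, all 7 tested end windows were under 5% in DMSO and 0 were called lower at any dose, against 43.2%, 28.6% and 3.8% of all ends. Of their 5 bodies, 4 were lower with 0.2 µM, 3 with 2 µM and 1 with 10 µM, against 92.1%, 82.4% and 31.5% of all bodies. The bodies of Irf1, an interferon-induced transcription factor, Creb1, and Rfxank, a subunit of the RFX complex, changed by -77.6, -72.2 and -53.9 points with 0.2 µM (adjusted p = 2.26e-05, 0.000134 and 0.00016). Rfxank was the body that was also lower with 10 µM, by 36.2 points (adjusted p = 0.0184). Against DMSO, no end or body window of the 3 lists was called higher at any dose. Of all ends, 0.386%, 0.292% and 0.0622% were higher with 0.2, 2 and 10 µM, and of all bodies 0.0379%, 0.0947% and 0.0853%.

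Across the series, reads at CpGs ranged from 8590883 to 16495535 a library, with medians of 3 to 5 reads per CpG, and the shallowest libraries were DMSO replicate 2 and 10 µM replicate 2. No expression was measured, so the B cell label can be set only beside methylation. In DMSO, of the B cell genes, the 5' end of Ebf1, the 3' end of Cd79a and the right end of Cd79b were under 1%, and the 5' end of Pax5 was at 28.6%. Of T cell genes, the left end of Cd4 was at 2.53%, the 3' end of Cd3d at 5.36% and the 3' end of Lck at 100%, the last from 3 CpGs with as few as 10 reads. These are not all start sites, so the values cannot be set beside each other as such. The myeloid genes listed had no tested end window.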

How the data were processed

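RRBS libraries were compared between 4 groups, taken from the labels. The authors deposited 1 table per library without a header, with positions in mm10 per the submitters' processing notes. Each line held methylated reads over all reads as 1 text entry of read counts per CpG, and a deposited score, which in 100% of lines was the share methylated on a scale of 1000 and had no other use. Names of the aligner, methylation caller and filters: not given in the sources used here. Lines of another width (1 to 2 a library) and at repeated positions (18 to 68) were left out. Deposited positions inside RefSeq start regions fell on a CpG in 181219 of 181219 cases, so the tables of GRCm38.p6 were used for genes, strands and sequences. No genome sequence was used, so exons and introns were not analysed here, and reads were not split by parental copy.

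Windows were made for 21757 protein-coding genes, and strand was known for 17476. Of these windows, 16074 ends, 10557 bodies and 16187 whole genes had 3 CpGs and 10 reads in every library. Levels were unweighted means over CpGs with 1 or more reads in all 9 libraries. They were tested in R 4.3.3 with a quasi-binomial logistic model over all libraries, weighted by the effective number of reads, with dispersion moderated by limma 3.58.1 (trend on reads), an F test and Benjamini-Hochberg adjustment over all windows of a kind. The threshold was 0.05. Simulated data had 200 windows changed by 1.5 in log odds at each dose. The body test called 15, 31 and 0 of them at 0.2, 2 and 10 µM and 0 unchanged windows. The end test called 9, 35 and 0 and at most 1 unchanged window. More windows were called in the real data, which makes the adjustment less strict there, so these numbers do not carry over. With few libraries a group, a missing call is still weak evidence. Intervals and limits at 0 (3 counts) cover counting error only. They treat counts as independent, although a read can count at several CpGs and PCR copies were not separated. The true limits may be wider.

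The 10 genes, the pathway lists and the markers were chosen with earlier results of these data known. All 10 genes are named, and of each pathway list the 3 windows with the largest change at 0.2 µM among those called there. Any window called higher than in DMSO was also to be named. The H2-D1 run was picked by its DMSO level after its values were seen. Part of the B cell marker list is not reported here. Same-numbered libraries did not deviate together (correlations of -0.0152 to 0.0272 over 16187 windows for 6 pairs of groups), so the main model has no replicate term. Alternatives were 5 or 10 reads per CpG, summed reads, limma on levels, no window filter, narrower ends, each library left out, and a replicate block.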

Additional observations from a re-analysis of the deposited data

How the results depend on the processing

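Counts below are member windows, of 8 ends, 7 bodies and 8 whole genes unless another number is given, and changes are in points, always in the order of the settings named. With 5 or more reads per CpG, 6 ends, 2 bodies and 7 whole genes could be tested. Bodies lower than DMSO numbered 1, 0 and 0 at 0.2, 2 and 10 µM (6, 4 and 1 in the main model), ends 0 and 0 at 0.2 and 2 µM (2 and 2), and whole genes 3, 2 and 1 (5, 4 and 0). From 0.2 to 2 µM, 1 body and 0 ends were then higher, and from 2 to 10 µM 0 bodies and 1 whole gene. Of all windows, 24.5% of ends, 77.5% of bodies and 56.7% of whole genes were then lower at 0.2 µM. At 2 µM, 2307 of 12503 ends, 4227 of 5887 bodies and 6595 of 13553 whole genes were lower. At 10 µM, 2193 of these bodies and 2102 of these whole genes were lower. From 0.2 to 2 µM, 159 ends and 1370 bodies were higher, and from 2 to 10 µM 1433 bodies and 1620 whole genes. With 10 or more reads, 5 ends, 1 body and 6 whole genes could be tested. Bodies numbered 1, 1 and 0, ends 0 and 0, and whole genes 1 and 0 at 0.2 and 2 µM, and between doses 0 bodies, ends or whole genes were higher. Of all windows, 5.62% of ends, 33.9% of bodies and 16.8% of whole genes were then lower at 0.2 µM. At 2 µM, 256 of 8517 ends, 626 of 2360 bodies and 1063 of 9521 whole genes were lower, and at 10 µM 141 of these bodies. From 0.2 to 2 µM, 0 ends, 65 bodies and 29 whole genes were higher, and from 2 to 10 µM 49 bodies and 1 whole gene.

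Class means, which have no test, also moved. With 5 or more reads, class I bodies (6 CpGs) changed by -20.8, -9.02 and 4.96 points at 0.2, 2 and 10 µM, class I ends (97) by -1.06 at 0.2 µM, class II bodies (24) by -13.3 and -7.32 at 0.2 and 10 µM, and class II ends (2) by -77.1, -41.7 and -40.0. With 10 or more reads, class I bodies (2) changed by -11.1, 2.04 and 5.64, class I ends (45) by -0.821 and -0.00323 at 0.2 and 2 µM, class II bodies (7) by -27.1, -24.2 and -23.1, and class II ends (1) by -64.2 and -32.3 at 0.2 and 10 µM. With reads summed, class I bodies changed by -29.9, -11.0 and -0.454, class I ends by -0.733, 0.786 and 0.857, class II bodies by -16.8 at 0.2 µM, and class II ends by -47.3 and -14.8 at 0.2 and 2 µM. With ends within 1 kb, class I bodies (38) changed by -45.8, -26.2 and -14.8, and class II ends (5) by -37.5 and 3.33 at 0.2 and 10 µM. The cause of these moves was not tested.

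With ends within 1 kb, 1 and 0 of 7 ends were lower at 0.2 and 2 µM and 1 was higher from 0.2 to 2 µM. Of all 14936 ends, 5582 and 3707 were then lower and 1305 higher. With limma on the levels, 1 end was lower at 2 µM, and 1 body was higher and 1 whole gene lower at 10 µM. It called 0 ends higher from 0.2 to 2 µM and 1 from 2 to 10 µM. Of all windows, limma called 4590 of 16074 ends lower at 2 µM. At 10 µM, 20 of 10557 bodies were higher and 3546 of 16187 whole genes lower. Of the 16074 ends, 265 were higher from 0.2 to 2 µM and 491 from 2 to 10 µM. Without a window filter, 1 of 9 ends was lower at 2 µM, against 5447 of 19803 of all. With reads summed, 2 whole genes were lower at 2 µM, 1 end higher from 0.2 to 2 µM and 1 whole gene from 2 to 10 µM. In the same order, 4959 of 16187 whole genes, 1434 of 16074 ends and 3229 of 16187 whole genes were called over all windows. With the replicate block, which left out 2 µM replicate 3, 1 end was lower at 2 µM. Under it, 0 ends were higher from 0.2 to 2 µM and 1 body from 2 to 10 µM. In the same order, 3341 of 16074 ends, 354 of 16074 ends and 3848 of 10557 bodies were called over all windows. The numbers pair no libraries here, so a call lost under the block is no weaker effect.

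Leaving out each library in turn, the lone library of a group being assumed to vary like the others, gave these ranges. Lower ends at 2 µM numbered 0 to 2. Lower bodies numbered 3 to 6, 1 to 3 and 0 to 1 at 0.2, 2 and 10 µM. Lower whole genes numbered 1 to 3 at 2 µM and 0 to 1 at 10 µM. Higher ends from 0.2 to 2 µM numbered 0 to 2, and from 2 to 10 µM higher bodies 0 to 2 and whole genes 0 to 3. At 0.2, 2 and 10 µM, the change of class I ends ran from -2.36 to -1.67, -1.41 to -0.422 and -1.14 to 0.206 points, of class I bodies from -53.3 to -50.8, -32.3 to -30.7 and -16.8 to -15.2, of class II ends from -59.6 to -51.3, -35.2 to -26.8 and -7.30 to 1.03, and of class II bodies from -24.8 to -21.2, -12.2 to -7.23 and -2.54 to 0.0128. The sign of the change with 10 µM thus turned in class I ends, class II ends and class II bodies. Shares of all windows moved too: at 0.2, 2 and 10 µM, lower ends ran from 28.0 to 43.2%, 10.1 to 27.6% and 0 to 3.49%, and lower bodies from 84.8 to 92.3%, 60.4 to 81.9% and 0.104 to 33.6%, each lowest without DMSO replicate 1 (ends at 10 µM also without DMSO replicate 2). From 0.2 to 2 µM, higher ends ran from 2.33 to 9.91% and bodies from 39.1 to 55.7%, and from 2 to 10 µM from 0 to 4.09% and from 15.7 to 42.3%. Lower whole genes ran from 47.3 to 68.9% at 2 µM and from 0.525 to 19.0% at 10 µM. Higher whole genes from 2 to 10 µM ran from 12.0 to 34.1%. Across all settings, 528 other counts and class means stayed within 1.5 times the main count or within 1 SD between replicates of the main change, which a change near 0 can do with its sign turned, and 69 values of single windows, none called in either model, changed sign. The depth of 3 to 5 reads per CpG limits single CpGs, and windows with under 50 reads, such as the bodies of H2-K1, H2-Eb1 and Psmb9 and the 3' end of Psmb9, rest on few reads.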
